A study of Tachycineta bicolor with 30 samples.

Results

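The ventromedial telencephalon (VmT) was compared with the hindbrain (HB) in free-living adult female tree swallows (*Tachycineta bicolor*), a songbird whose females compete for nest cavities and then incubate alone. The members are the 9 VmT and the 9 HB libraries of the series, 18 of the 27 libraries with values; the other 9 libraries are from the hypothalamus (HYPO). In each region 4 libraries come from females taken during territory establishment (TE) and 5 from females taken during incubation (INC), and none of the birds was treated or carried an engineered allele. The VmT piece is a strip of the caudal telencephalon cut at the place where nucleus taeniae, a relative of the mammalian medial amygdala, lies in other songbirds, and the HB piece was cut at the level of the mammillary bodies, so both are pieces of tissue that hold several nuclei. Each female gave both pieces, except that the labels of 1 VmT library of TE carry the numbers of 2 females: 85691, used here, in its description and 85692 in its title. The study left out female 85692 for degraded RNA in HB and HYPO, and which of these females gave that VmT piece is not settled by the labels. A separate VmT sample of TE with 85691 in its title has no values. The question is which transcripts mark each region, whatever the breeding stage.

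As background, the vertebrate brain is patterned along its length by transcription factors that stay on in adult neurons. The homeobox factors of the DLX family, LHX6 and NKX2-1 act in the making of GABA neurons of the telencephalon, and TBR1 marks glutamate neurons of the pallium. Hox genes are expressed from the hindbrain backwards, and the hindbrain holds the serotonin neurons of the raphe, the noradrenaline neurons of the locus coeruleus, cranial motor neurons and many glycine neurons.

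Each deposited value is a transcript's reads scaled to its library by a single size factor, called a normalized count, and takes no account of transcript length, so levels are compared between libraries and not between genes. Divided by the value of 1 read, they come to between 7152856 and 13710385 reads in the VmT libraries and between 7968535 and 9957280 in the HB libraries. Differences are log2 of the normalized count plus 1, VmT minus HB, so that a positive difference is higher in VmT. They were tested with limma, with stage as a covariate and the female as a block, and a transcript is called at an adjusted p of at most 0.05. A gene is given by the lowest, median and highest of the 9 libraries of each region. In tissue pieces of this kind, fewer cells of a type and less RNA per cell cannot be told apart. The HB library of incubating female 85889 stands apart by pituitary hormone RNA: prolactin (PRL) had 82802 normalized counts in it, against at most 195 in the other HB libraries. The summed level of the 16 measured hypothalamus and pituitary genes was 344 to 1384 normalized counts in VmT and 133 to 89295 in HB, where the highest value is that library. PRL is among the calls higher in HB (log2 difference -4.05, standard error 1.21, adjusted p = 0.0088), with 0, 0 and 10.2 normalized counts in VmT and 0, 8.69 and 82802 in HB, and its 2 ranges overlap. Without that library the difference was -2.75 (adjusted p = 0.0034).

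Of 19406 transcripts tested, 9062 (46.7%) differed between the regions: 3710 were called higher in VmT, which is 19.1%, and 5352 were called higher in HB, which is 27.6%. The median difference over all tested transcripts was -0.08. Counts of calls in the gene lists below are to be set against these shares of 19.1% and 27.6%. The lists and their members were chosen with earlier results of these data known, so their counts are descriptions and not independent evidence. Some genes are in several lists. The lean toward HB depends on the scaling. With TMM factors 4614 calls were higher in VmT and 4484 in HB. The quasi-likelihood test of edgeR on the recovered reads, which also uses TMM factors, gave 4593 and 4172. The lean stayed with quantile normalization (4258 and 4730), with DESeq2 on the recovered reads (3841 and 4275) and with centring on the median (3623 and 5294). Differences of at least 2-fold were fewer, 838 higher in VmT (4.32%) and 1406 higher in HB (7.25%).

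A transcript was taken as a marker of a region when it was called, differed by at least 2 on the log2 scale, and had no overlap between its 9 VmT and its 9 HB values. This gave 171 VmT markers (0.881% of those tested) with 140 different protein titles, and 106 HB markers (0.546%) with 95 titles, together 1.43% of those tested. A value range without overlap was itself common: 927 transcripts (4.78%) were higher in all VmT than in all HB libraries, and 1009 (5.2%) were higher in all HB libraries. The dopamine receptor DRD2 (log2 difference 2.12) lay just inside the VmT limit, and HPCAL4, a neuronal calcium sensor (1.97), just outside it. On the HB side GCH1 (-2.0), which makes the cofactor of monoamine synthesis, lay just inside, and GJB1 (-1.94), a gap junction protein of myelin, just outside.

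**Figure D1:**
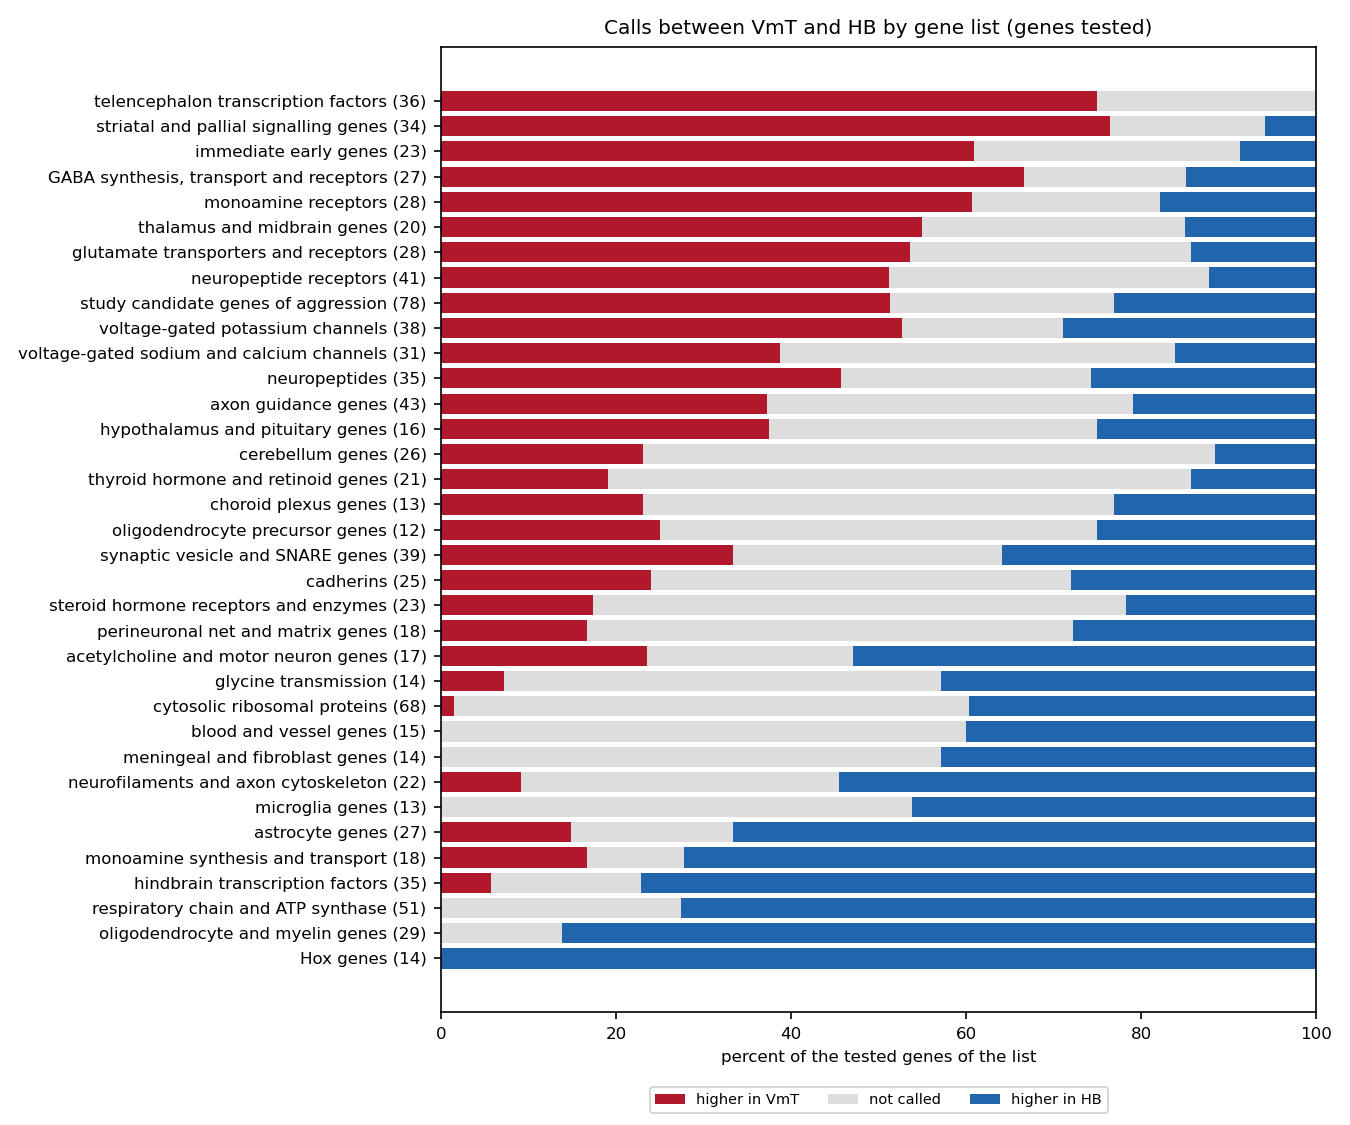
Percent of the tested genes of each of 35 gene lists that were called higher in VmT (left, red), not called (grey) or called higher in HB (right, blue); the number in brackets is the number of genes tested. Telencephalon transcription factors have 27 of 36 genes higher in VmT and none higher in HB, and the 14 Hox genes are all higher in HB, against 19.1% and 27.6% of all transcripts. The lists were chosen with earlier results of these data known.

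Telencephalic transcription factors were the leading VmT markers. Of 36 measured genes of this list 27 were higher in VmT, none was higher in HB and 9 were not called, with a median difference of 1.71. The list counts EGR3, which is reported below with the immediate early genes. TBR1, the T-box factor of pallial glutamate neurons, had 62.1, 96.5 and 196 normalized counts in VmT and 0, 1.04 and 4.34 in HB, without overlap (log2 difference 5.67, standard error 0.29, adjusted p = 5.8e-13). EMX2, a homeobox factor of the dorsal telencephalon, was also a marker (58.9, 82.1 and 177 in VmT, 0, 4.84 and 20.6 in HB, log2 difference 4.36).

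Homeobox genes of the subpallium, which makes GABA and cholinergic neurons, formed a second block of VmT markers. LHX8, a LIM factor of cholinergic neurons of the basal forebrain, had the largest difference among VmT markers with a gene symbol, with 322, 422 and 616 normalized counts in VmT and 0, 1.09 and 4.34 in HB (log2 difference 7.54, standard error 0.20, adjusted p = 5.8e-18). Its partner LHX6, which directs interneurons derived from the medial ganglionic eminence, had 852, 1052 and 1560 in VmT and 22.4, 44.0 and 52.0 in HB (log2 difference 4.81, standard error 0.12). NKX2-1, which acts upstream of both, had 32.2, 41.1 and 65.0 in VmT and 0, 0 and 5.88 in HB. None of the 3 overlapped between the regions.

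DLX genes, which act in forebrain GABA neurons, were also higher in VmT. DLX6 had 270, 331 and 590 normalized counts in VmT and 0, 2.90 and 10.9 in HB (log2 difference 7.07, standard error 0.33). DLX5, its neighbour in the genome in other vertebrates, had 155, 173 and 308 in VmT and 0, 2.90 and 10.9 in HB (log2 difference 5.70). DLX2 had 11.3, 22.3 and 44.7 in VmT, against 4 recovered reads in all 9 HB libraries together. DLX1 was detected in both, at 373, 444 and 596 in VmT and 108, 134 and 206 in HB, and its difference of 1.67 (standard error 0.10, adjusted p = 5.1e-12) stayed below the marker limit although the ranges were apart. A separate transcript of low level, titled as a DLX-1-like homeobox protein, was a VmT marker, with a mean of 4.86 in VmT and 0 in every HB library. BCL11B, a zinc finger factor of striatal projection neurons, had 1137, 1393 and 2299 in VmT and 117, 170 and 220 in HB (log2 difference 3.22). SIX3, an anterior forebrain factor, was called (log2 difference 4.57, standard error 0.59), but its 165, 219 and 308 in VmT overlapped its 0, 6.52 and 186 in HB.

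**Figure D2:**
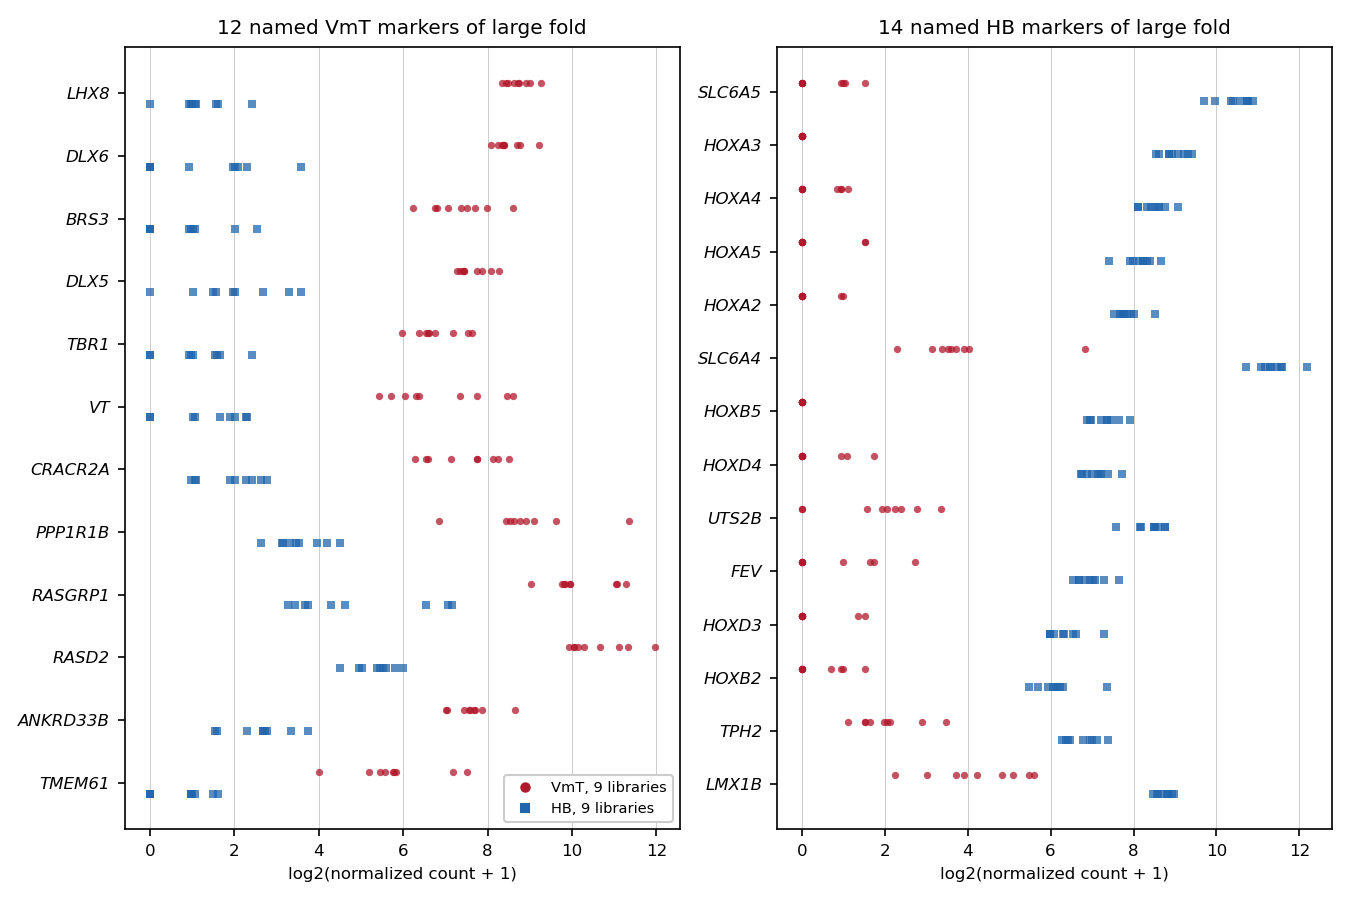
Each point is 1 library at log2(normalized count + 1); for each gene the 9 VmT libraries (red circles) lie above the 9 HB libraries (blue squares), with 12 named VmT markers of large fold on the left and 14 named HB markers on the right. LHX8 ranges from 322 to 616 normalized counts in VmT and from 0 to 4.34 in HB, and HOXA3 has 0 in every VmT library and 369 to 680 in HB.

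The VmT marker of largest fold was the uncharacterized protein loc423301, named after its values were seen, with 1316, 1792 and 4013 normalized counts in VmT and 2.9, 4.56 and 36.4 in HB (log2 difference 8.13, standard error 0.28). Signalling genes were also among the markers of large fold. BRS3, an orphan receptor of the bombesin family, had 74.0, 163 and 390 normalized counts in VmT and 0, 0.975 and 4.84 in HB (log2 difference 6.38, standard error 0.31). CRACR2A, a calcium sensor of store-operated channels, also stood apart, at 76.6, 213 and 362 in VmT and 0.975, 3.01 and 5.88 in HB (log2 difference 5.53). ANKRD33B and TMEM61, 2 proteins with no established brain role, were higher in VmT by 5.02 and 5.01.

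Several of these genes carry dopamine signals in striatal neurons of mammals. PPP1R1B encodes the dopamine- and cAMP-regulated phosphoprotein DARPP-32, and had 114, 437 and 2591 normalized counts in VmT and 5.19, 10.0 and 21.7 in HB (log2 difference 5.37, standard error 0.37). It varied more among VmT libraries than the homeobox genes did, with the lowest library still above the highest HB library. RASD2, the striatal GTPase Rhes, had 979, 1251 and 3973 in VmT and 21.7, 42.8 and 62.4 in HB (log2 difference 5.25, standard error 0.21). RASGRP1, an exchange factor for Ras, was measured by 4 transcripts, all higher in VmT by 4.82 to 5.33. The 4 share a protein title, so reads may be split among them. Over the list of striatal and pallial signalling genes 26 of 34 were higher in VmT and 2 higher in HB, and 10 were VmT markers (median difference 0.90).

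Only 1411 of the 19478 transcripts carry a gene symbol here, and genes were ranked by absolute difference among these alone. Among their calls of at least 2-fold the VmT was led by CAMK2A, the alpha subunit of the calcium kinase of excitatory synapses. It had 12282, 21126 and 34928 normalized counts in VmT and 1706, 1935 and 2161 in HB, without overlap (log2 difference 3.52, standard error 0.13, adjusted p = 1.4e-15). A second transcript with the same title was not called. PDE2A, a phosphodiesterase that degrades cAMP and cGMP, had 7589, 9317 and 16908 in VmT and 1263, 1554 and 1731 in HB (log2 difference 2.77). CHN1, a GTPase-activating protein for Rac, MUL1, a mitochondrial ubiquitin ligase, and ARPP19, a phosphatase inhibitor, followed with differences of 1.79, 1.84 and 1.14, each without overlap between the regions. For CHN1, 2 further transcripts were not called.

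Hox genes marked the hindbrain throughout. All 14 measured were HB markers, and in 6 of them every VmT library was at 0. HOXA3 had 369, 487 and 680 normalized counts in HB and 0 in the 9 VmT libraries. It was at least 1620-fold lower in VmT if a count of 0 stands for at most 3 reads over the 9 libraries. That limit of 3 reads was set here and takes no account of variation between libraries. HOXB5 was at least 511-fold lower in VmT on the same terms, with 0 in every VmT library and 117, 162 and 241 in HB. HOXA4 and HOXA5 had 4 recovered reads each over the 9 VmT libraries, against 3268 and 2546 over the 9 HB libraries, and HOXA2 had 2, against 2080.

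Members of Hox groups 2 to 7 were found in HB. HOXB2, HOXD3 and HOXD4 had medians of 67.2, 77.1 and 139 in HB and of 0 in VmT. HOXA6, HOXB6, HOXA7 and HOXB7 had medians of 12.5, 33.2, 7.27 and 7.61 in HB and of 0 in VmT. The median difference of the 14 genes was -5.85 as fitted, which the added 1 holds down, and -6.41 with the 6 genes at 0 set to their bound.

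Other hindbrain factors followed the same direction in most cases. Of 35 measured, 27 were higher in HB, 2 were higher in VmT and 6 were not called (median difference -1.43). PHOX2A, a factor of noradrenaline and visceral motor neurons, was at 0 in all VmT libraries, with 4.16, 11.9 and 21.4 normalized counts in HB. With the limit used for HOXA3 it was at least 38.8-fold lower in VmT. LMX1B, needed for serotonin neurons, had 3.71, 17.5 and 47.8 in VmT and 353, 449 and 505 in HB, without overlap (log2 difference -4.51, standard error 0.30). PAX2 and EN1, factors of the midbrain-hindbrain boundary, differed by -3.37 and -2.77. NKX6-1, a ventral patterning factor, differed by -2.51 (10.2, 16.3 and 32.9 in VmT, 82.1, 101 and 125 in HB). POU4F1, a sensory neuron factor, ran over a wide range in VmT (4.64 to 272) and stayed below HB (295 to 580).

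Membership in that list did not fix the direction. ISL1, a LIM factor of motor neurons that is also expressed in striatal neurons, was a VmT marker, with 95.7, 120 and 207 normalized counts in VmT and 7.03, 11.3 and 23.9 in HB (log2 difference 3.35, standard error 0.18, adjusted p = 1.7e-12). Thalamus and midbrain genes were read as a check on neighbouring tissue: 11 of 20 were higher in VmT and 3 in HB (median 0.66). LHX9 was a marker among them, at 291, 545 and 729 in VmT and 44.2, 66.5 and 107 in HB. OTX2, a factor of forebrain, midbrain and choroid plexus, was called higher in VmT (27.8, 196 and 469, against 1.82, 22.8 and 63.7 in HB) with overlapping ranges. The summed level of choroid plexus genes had a median of 11664 in VmT (4994 to 16649) and 6767 in HB (5706 to 19934, the highest being the library of INC female 85774). Cerebellum genes were mostly not called (17 of 26; 6 higher in VmT and 3 in HB), and their summed level had a median of 19050 in VmT (14053 to 22972) and 11653 in HB (9178 to 23545). The part of neighbouring tissue in the region differences was not tested.

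Serotonin genes were among the HB markers of large fold. SLC6A4, the serotonin reuptake transporter, had 3.92, 11.1 and 113 normalized counts in VmT and 1680, 2538 and 4636 in HB, without overlap (log2 difference -7.54, standard error 0.34, adjusted p = 6.4e-14). The VmT value of 113 belongs to the library of incubating female 85757, and the next highest VmT library had 15.3. TPH2, the enzyme that starts serotonin synthesis in neurons, was measured by 3 transcripts, all higher in HB by 4.22 to 4.71 on the log2 scale. The most abundant had 5.85, 21.9 and 77.0 in VmT and 263, 415 and 742 in HB. FEV, the ETS factor that defines serotonin neurons, had 0, 0 and 5.56 in VmT and 92.1, 122 and 201 in HB (log2 difference -6.18, standard error 0.28).

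Over the whole list of monoamine synthesis, storage and clearance, genes were mainly higher in HB. The list counts SLC6A4, TPH2 and the transcription factor FEV again. Of 18 measured, 13 were higher in HB, 3 in VmT and 2 were not called, with a median difference of -1.69, and 6 were HB markers. DDC, the decarboxylase that makes both dopamine and serotonin, had 75.5, 143 and 243 normalized counts in VmT and 622, 1006 and 1975 in HB (log2 difference -2.88, standard error 0.22). SLC18A2, the vesicular monoamine transporter, had 3.14, 5.60 and 12.1 in VmT and 41.7, 70.2 and 116 in HB (log2 difference -3.21). TH, the first enzyme of catecholamine synthesis, was called (log2 difference -2.1, standard error 0.26), but its 95.5, 184 and 643 in VmT overlapped its 480, 861 and 1898 in HB. DBH, which turns dopamine into noradrenaline, had 1.25, 3.71 and 8.89 in VmT and 8.69, 23.7 and 43.6 in HB, with an overlap of the lowest HB library (log2 difference -2.33). A second, less abundant DBH transcript was also called higher in HB and was an HB marker. HDC, which makes histamine, went the other way, with 20.4, 33.6 and 55.7 in VmT and 14.1, 19.1 and 30.4 in HB (log2 difference 0.74, standard error 0.18, adjusted p = 0.002), with overlapping ranges. Of the degrading enzymes HNMT was higher in HB by 1.6 on the log2 scale, and MAOB was higher in VmT by 0.49 (adjusted p = 5.2e-04), both with overlapping ranges.

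Of the 14 genes of glycine transmission 6 were higher in HB, 1 in VmT and 7 were not called, and 3 were higher in HB by at least 1 on the log2 scale. SLC6A5, the transporter that loads glycine neurons and marks them, had the largest fitted difference of all named genes. It had 5 recovered reads over the 9 VmT libraries and 12897 over the 9 HB libraries, and its normalized counts were 0, 0 and 1.87 in VmT and 827, 1509 and 1872 in HB (log2 difference -9.96, standard error 0.20, adjusted p = 7.5e-20). SLC6A9, the glycine transporter of glia, was also higher in HB, with 1076, 1439 and 1894 in VmT and 3082, 4061 and 4672 in HB (log2 difference -1.45). GLRA1, the alpha-1 receptor subunit, was the third, at 0 in all VmT libraries and at 0, 1.95 and 11.9 in HB (24 recovered reads over the HB libraries; log2 difference -1.34, standard error 0.37, adjusted p = 0.0047), and DESeq2 did not call it (adjusted p = 0.15). Among the other receptors GLRA4 was higher in HB by 0.93, GLRB, the shared beta subunit, by 0.21 (not called with TMM factors, adjusted p = 0.068), and GLRA2 was not called (-0.14, standard error 0.10).

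GABA genes were higher in VmT by less than 2-fold in the synthetic enzymes and by more in a receptor gene. GAD2 had 2872, 3555 and 3921 normalized counts in VmT and 1628, 1726 and 2199 in HB, without overlap (log2 difference 0.91, standard error 0.07). GAD1, the second glutamate decarboxylase, differed by 0.99 with overlapping ranges, and SLC32A1, the vesicular GABA transporter, by 0.54. GABRA5, a receptor subunit of extrasynaptic receptors, was the only VmT marker of the 27 genes, at 2037, 2986 and 6047 in VmT and 390, 524 and 721 in HB (log2 difference 2.61, standard error 0.14). SLC6A11, the GABA transporter of astrocytes, was higher in HB, with 608, 810 and 1096 in VmT and 1437, 1940 and 2520 in HB (log2 difference -1.24, standard error 0.10). Over the list 18 of 27 were higher in VmT and 4 in HB (median 0.38).

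Glutamate receptor and transporter genes were mainly higher in VmT, 15 of 28 against 4 higher in HB (median 0.47). GRIN2B, the NMDA receptor subunit that prolongs currents, had 3169, 4414 and 5906 normalized counts in VmT and 1049, 1496 and 1820 in HB (log2 difference 1.58, standard error 0.10). GRIA2, which makes AMPA receptors impermeable to calcium, differed by 1.37 without overlap, although 1 of its 4 transcripts was not called. GRIN2C, the subunit of cerebellar granule cells in mammals, went the other way, with 3.71, 30.6 and 71.2 in VmT and 62.4, 90.2 and 275 in HB (log2 difference -1.96, standard error 0.36). SLC17A6, the vesicular transporter of many subcortical glutamate neurons, had 381, 738 and 797 in VmT and 678, 778 and 845 in HB and was not called (-0.18, standard error 0.09, adjusted p = 0.12), whereas a second transcript of it was higher in HB. SLC17A8, the transporter shared by glutamate and raphe serotonin neurons, was an HB marker (1.05, 4.70 and 10.0 in VmT, 15.1, 19.5 and 40.9 in HB, log2 difference -2.2).

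Of 17 acetylcholine and motor neuron genes 4 were higher in VmT, 9 in HB and 4 were not called. CHAT, which makes acetylcholine, had 47.9, 92.6 and 247 normalized counts in VmT and 324, 361 and 626 in HB (log2 difference -2.07, standard error 0.21, adjusted p = 3.8e-08). SLC5A7, the choline transporter that supplies it, had 460, 681 and 1416 in VmT and 2526, 2722 and 3975 in HB (log2 difference -2.02), and SLC18A3, the vesicular transporter, differed by -1.89. The nicotinic subunit CHRNA3, found in autonomic and brainstem neurons, was an HB marker as well (-2.01). The muscarinic receptor CHRM4, which couples to the inhibitory G protein and opposes dopamine D1 signals in the mammalian striatum, had 555, 859 and 1745 in VmT and 41.3, 50.3 and 92.5 in HB (log2 difference 4.0, standard error 0.17). CHRM5 was a VmT marker too (233, 331 and 588 in VmT, 50.3, 65.4 and 81.1 in HB, log2 difference 2.32), and CHRM3 was not called (0.11, standard error 0.16).

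**Figure D3:**
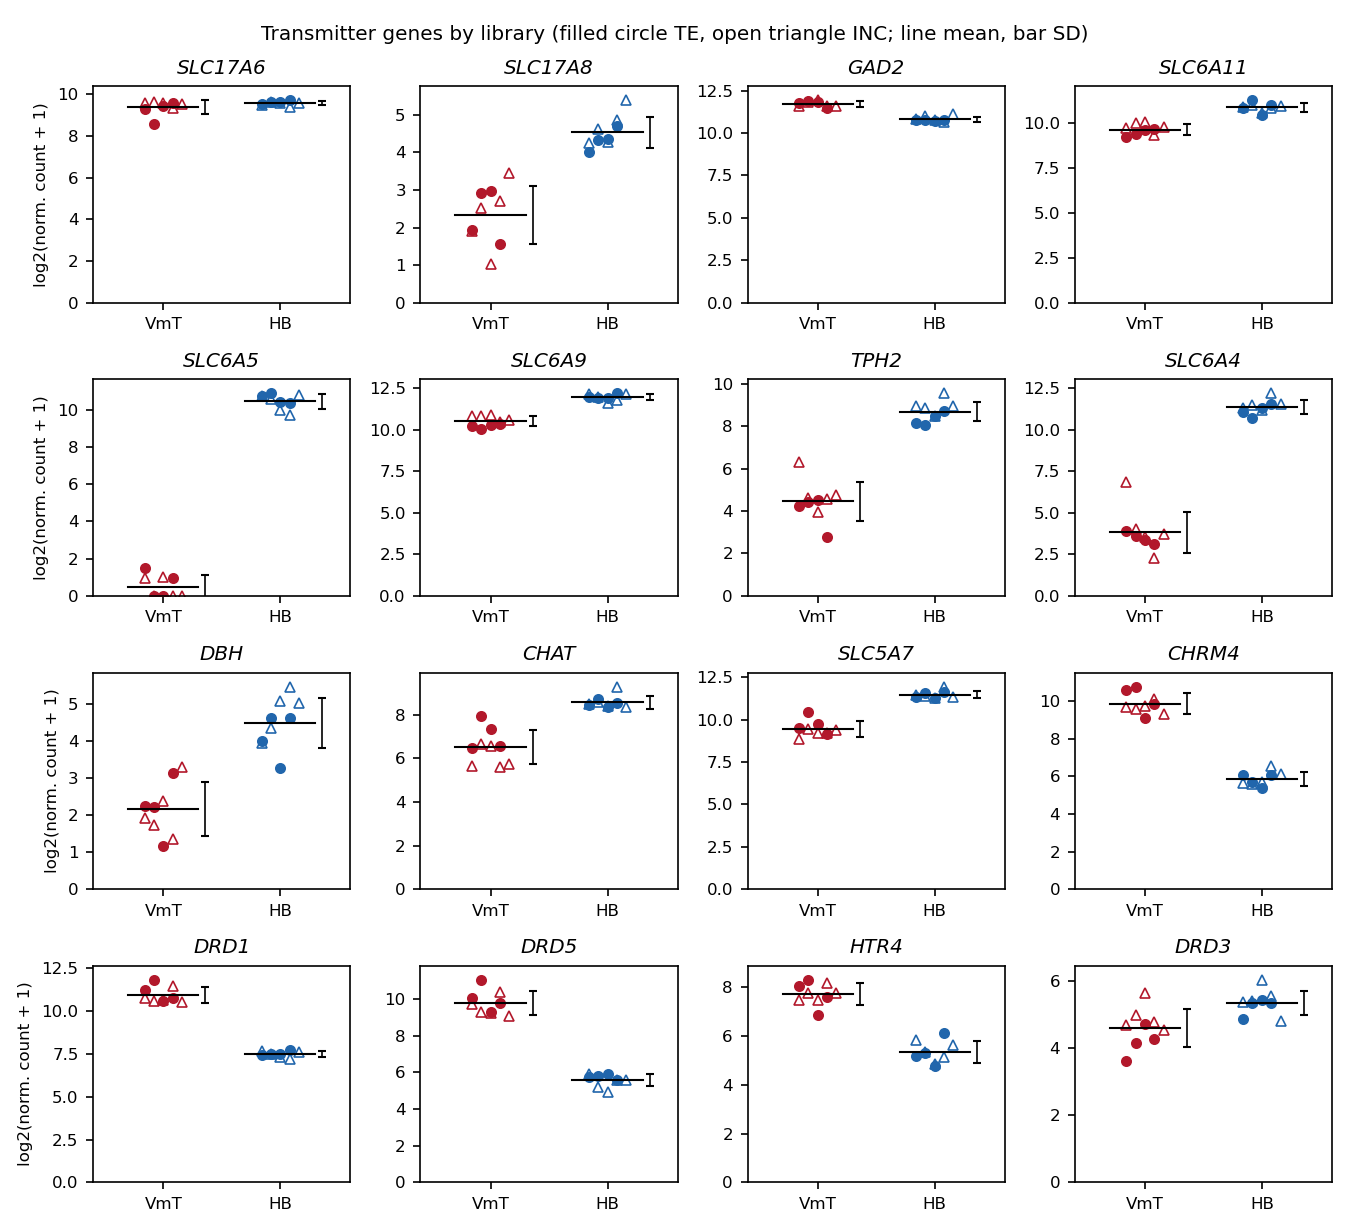
Values of 16 transmitter genes at log2(normalized count + 1), VmT on the left and HB on the right of each panel; filled circles are TE libraries, open triangles INC libraries, the line is the mean and the bar the SD of 9 libraries. SLC6A5, TPH2, SLC6A4 and CHAT are low in VmT and high in HB, the receptors CHRM4, DRD1, DRD5 and HTR4 are high in VmT, and SLC17A6 has 381 to 797 normalized counts in VmT and 678 to 845 in HB.

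Of 28 monoamine receptor genes measured 17 were higher in VmT, 5 in HB and 6 were not called (median difference 0.80), and 5 were VmT markers: DRD1, DRD5, DRD2, HTR4 and a transcript titled as a D(1) dopamine receptor-like protein. DRD5 had 531, 864 and 2109 normalized counts in VmT and 29, 47.8 and 58.6 in HB (log2 difference 4.19, standard error 0.17, adjusted p = 1.6e-14). DRD1 had 1457, 1726 and 3629 in VmT and 146, 179 and 210 in HB (log2 difference 3.43, standard error 0.14). HTR4, a serotonin receptor that raises cAMP, had 115, 218 and 316 in VmT and 26.1, 39.2 and 69.5 in HB (log2 difference 2.36, standard error 0.17), and 1 of its 4 transcripts was not called. HTR1D and the alpha-2C adrenergic receptor ADRA2C were higher in VmT by 1.83 and 1.82 without overlap. DRD3 and HTR1A were higher in HB by 0.75 and 0.59 on the log2 scale, each with an overlap, and HTR1A was not called by edgeR (adjusted p = 0.072).

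Neuropeptide genes marked both regions. Of 35 measured 16 were higher in VmT and 9 in HB (median 0.20), with 5 VmT and 3 HB markers. Of all transcripts 19.1% were higher in VmT and 27.6% in HB, so the count in HB is near that share. Vasotocin (VT), the avian vasopressin, had 41.8, 82.1 and 389 normalized counts in VmT and 0, 2.17 and 3.90 in HB (log2 difference 5.53, standard error 0.40, adjusted p = 1.8e-10). Prodynorphin (PDYN), an opioid precursor, had 182, 263 and 923 in VmT and 18.7, 38.3 and 47.8 in HB (log2 difference 3.10). Amylin (IAPP), a peptide better known from the pancreas, had 183, 302 and 518 in VmT and 21.3, 47.8 and 167 in HB (log2 difference 2.59), and NPY differed by 2.21. Proenkephalin (PENK) and TAC1, the substance P precursor, were abundant in both regions and higher in VmT by 1.24 and 1.69 without overlap, and so was CCK, by 1.80.

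Among the peptides higher in HB, UTS2B, a urotensin II-related peptide, had 0, 3.14 and 9.27 normalized counts in VmT and 189, 360 and 433 in HB (log2 difference -6.58, standard error 0.33). UTS2, the urotensin made by motor neurons in mammals, had 7 recovered reads over the VmT libraries and 428 over the HB libraries. CALCA, the calcitonin gene-related peptide precursor, had 3.73, 18.5 and 27.5 in VmT and 92.6, 124 and 153 in HB (log2 difference -2.95). NMB and ADCYAP1 were higher in HB by 1.35 and 0.85 on the log2 scale with overlapping ranges. Of 41 peptide receptors 21 were higher in VmT and 5 in HB: the markers were BRS3 and MC3R, a melanocortin receptor (23.4, 44.8 and 66.7 in VmT, 3.87, 8.31 and 17.6 in HB), and OPRK1, the receptor for dynorphin, was higher in VmT by 1.76. CCKAR, the CCK receptor of vagal circuits, was higher in HB by 2.74 on the log2 scale with an overlap.

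Myelin genes were lower in VmT. Of 29 oligodendrocyte and myelin genes 25 were higher in HB, none in VmT and 4 were not called (median difference -1.44), and their summed level was 17455 to 29919 normalized counts in VmT and 55281 to 81335 in HB, without overlap. UGT8, which makes galactosylceramide, had 2072, 2867 and 3568 normalized counts in VmT and 7919, 8876 and 10504 in HB (-1.73). None of the 29 met the marker rule, although 17 had ranges apart. A transcript that was not among the 29, titled as a myelin P2 protein-like protein, was an HB marker. Genes of oligodendrocyte precursors were divided (3 higher in VmT, 3 in HB and 6 not called, of 12).

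Other glial and axonal genes leaned the same way by less. Astrocyte genes were higher in HB in 18 of 27 and in VmT in 4 (median -0.60). GFAP, the astrocyte intermediate filament, had 219, 427 and 523 normalized counts in VmT and 869, 1257 and 1978 in HB (log2 difference -1.63). A second GFAP transcript was not called (-0.96). FABP7, a lipid carrier of radial glia, was higher in VmT by 0.66. Of the neurofilament and axon cytoskeleton genes 12 of 22 were higher in HB, led by NEFM, a subunit of thick axons (24.3, 55.6 and 215 in VmT, 322, 563 and 1454 in HB, log2 difference -3.36). Among calls of at least 2-fold with a gene symbol, the 5 largest excesses of HB by absolute level included AKAP12 and HEBP2. AKAP12 is a scaffold of kinase A (-2.01), and HEBP2 a heme-binding protein (-1.47). Microglia (6 of 13), blood and vessel (6 of 15) and meningeal genes (6 of 14) were higher in HB where called, and none of them was higher in VmT, although 2 blood and vessel genes were with TMM factors. Of all transcripts 27.6% were higher in HB and 19.1% in VmT, so on lists this short the excess in HB is a few genes. HAPLN2, the link protein of nodes of Ranvier, was an HB marker (35.3, 87.7 and 117 in VmT, 322, 443 and 592 in HB), and HAPLN4, a link protein of perineuronal nets, was higher in HB by 2.46 with an overlap.

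Channel and synapse families held members on both sides. Of 38 potassium channel genes 20 were higher in VmT and 11 in HB. KCNH4, a channel of the telencephalon in mammals, had 4.39, 16.8 and 29 normalized counts in VmT and 0, 0.912 and 2.94 in HB (log2 difference 3.26), and KCNG4, a modifying subunit, had 23.3, 77.7 and 110 in VmT and 293, 363 and 425 in HB (-2.48). The modifying subunits KCNS2 and KCNS3 went in opposite directions, 1.90 and -1.72, neither with an overlap. SCN3B, a sodium channel beta subunit, and CACNA1G, a T-type calcium channel, were higher in VmT by 1.67 and 1.58. A second CACNA1G transcript was not called (0.61).

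Vesicle fusion genes also held members on both sides. VAMP1, the synaptobrevin of brainstem and motor neurons in mammals, had 542, 845 and 1109 in VmT and 3595, 4989 and 5823 in HB (log2 difference -2.55, standard error 0.10, adjusted p = 1.2e-14). CPLX3, a complexin known from retina and cortical subplate, had 261, 395 and 530 in VmT and 11.7, 22.8 and 74.5 in HB (log2 difference 3.74). Of the 39 genes of that list 13 were higher in VmT and 14 in HB, an order that turned to 15 and 10 with TMM factors. Axon guidance genes were higher in VmT in 16 of 43 and in HB in 9, against 19.1% and 27.6% of all transcripts. The ephrin receptors EPHB6 and EPHA4 were higher in VmT by 1.6 and 1.51, and SEMA7A, a membrane semaphorin, was higher in HB by 1.42 on the log2 scale.

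Immediate early genes, which neurons switch on with activity, were higher in VmT in 14 of 23 and in HB in 2 (median 0.65). EGR3 had 32.6, 73.4 and 128 normalized counts in VmT and 0, 1.96 and 13 in HB (log2 difference 4.27, standard error 0.32). ARC, which acts at active synapses, had 668, 806 and 2446 in VmT and 137, 163 and 235 in HB (log2 difference 2.54), and EGR1 differed by 1.93, also without overlap. Of 23 steroid genes measured 4 were higher in VmT, 5 in HB and 14 were not called. These counts lie near the shares of all transcripts, 19.1% and 27.6%. With TMM factors 6 steroid genes were higher in VmT and 3 in HB. ESR2, estrogen receptor beta, had 91.0, 169 and 232 in VmT and 23.2, 50.2 and 77.9 in HB (log2 difference 1.81), and CYP19A1, the aromatase that makes estradiol, was higher in VmT by 1.47. In the thyroid hormone and retinoid list RARA was higher in VmT by 1.10 and ALDH1A3, a retinoic acid synthase, higher in HB by 1.44 on the log2 scale. Of its 21 genes 4 were higher in VmT, 3 in HB and 14 were not called, against 10344 not called of all 19406 transcripts.

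A list of candidate genes of aggression came from the study itself and is not independent evidence of a direction. Of its 78 measured genes 40 were higher in VmT and 18 in HB (median 0.32), with 3 VmT and 2 HB markers. Housekeeping lists leaned toward HB: 37 of 51 respiratory chain genes and 27 of 68 cytosolic ribosomal protein genes were higher in HB, and none and 1 were higher in VmT. With TMM factors 32 respiratory chain and 22 ribosomal protein genes were higher in HB, and none and 3 in VmT. Ribosomal protein transcripts with a mean under 50 normalized counts had a median difference of -1.51 (19 genes), and those with a mean of at least 50 had -0.08 (49 genes), against -0.08 for all transcripts. Respiratory chain transcripts with a mean under 50 had a median of -1.34 (11 genes, 7 higher in HB), and those with a mean of at least 50 had -0.32 (40 genes, 30 higher in HB).

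The region difference was also fitted within each breeding stage. Within TE 2995 transcripts were higher in VmT (15.4%) and 4456 in HB (23%), and within INC 2678 (13.8%) and 3576 (18.4%). The sign of a marker in each stage is fixed by the absence of overlap that chose it. All 171 VmT markers were called in each stage, as were all 106 HB markers in TE and 105 in INC, where POU4F1 missed the threshold. The same libraries chose the markers by size and separation, so these calls are not a separate test. The difference between INC and TE in the region contrast was called for 195 transcripts, 1% of those tested, each with a contrast larger toward VmT in INC, and for none the other way. By unadjusted p of at most 0.05, 2200 differed in either direction. The count of 195 is not steady: it was 2 without the pairing by female, and between 2 and 334 when a library was left out, the 2 being without the HB library of TE female 85694 and the 334 without the VmT library of INC female 85757. HAPLN2 and MAB21L2, a cell fate protein of the developing midbrain and eye, were the 2 markers among the 195. HAPLN2 was higher in HB by 3.24 on the log2 scale in TE and by 2.02 in INC, and MAB21L2 by 4.99 and 3.21.

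**Figure D4:**
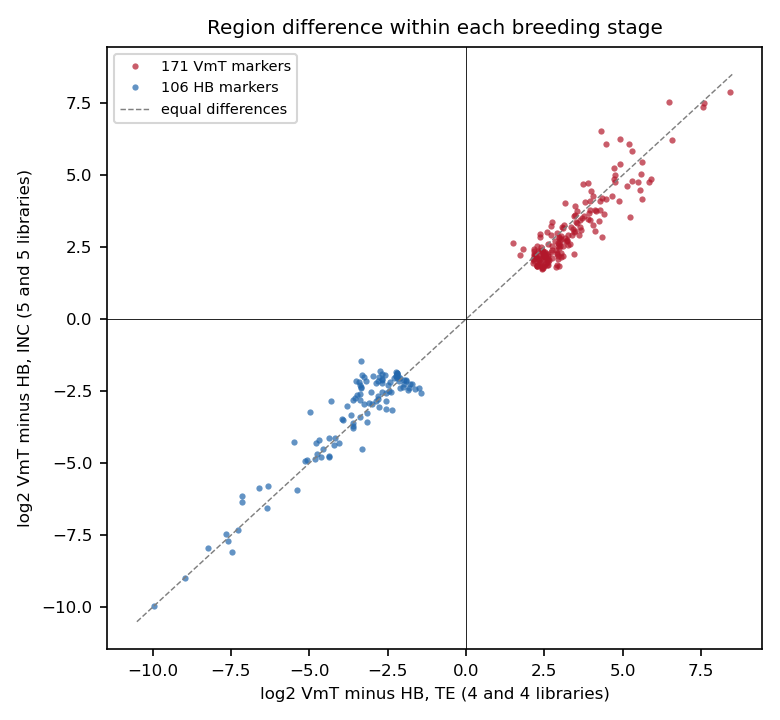
Log2 difference VmT minus HB in TE (4 and 4 libraries, x axis) and in INC (5 and 5 libraries, y axis) for the 171 VmT markers (red) and the 106 HB markers (blue); the dashed line marks equal differences. The rule that chose the markers fixes their sign in both stages. In size, 127 of 171 VmT markers and 68 of 106 HB markers are larger in TE, with sizes from 1.44 to 9.97 in TE and from 1.45 to 9.95 in INC, and the largest gap between the stages is 2.22.

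The hypothalamus, cut from the same females, took a middle position for most markers. The mean HYPO level lay between the VmT and HB means for 157 of 171 VmT markers and 94 of 106 HB markers, against 11029 of all 19406 transcripts. The markers were chosen for a wide gap between VmT and HB, which leaves more room for a level in between than most transcripts have. The higher share among markers therefore says little about HYPO. Over all transcripts 13.4% were higher in VmT than in HYPO and 15.3% lower, and 9.38% were higher in HB than in HYPO and 6.53% lower. Of the VmT markers 156 were also higher in VmT than in HYPO and 13 were not called, and only VT and MC3R were lower in VmT than in HYPO (means of 160 and 43.9 normalized counts in VmT, 434 and 105 in HYPO). Of the HB markers 86 were also higher in HB than in HYPO, and 20 were not called in that comparison. These comparisons share the VmT or HB libraries with the comparison that chose the markers.

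**Figure D5:**
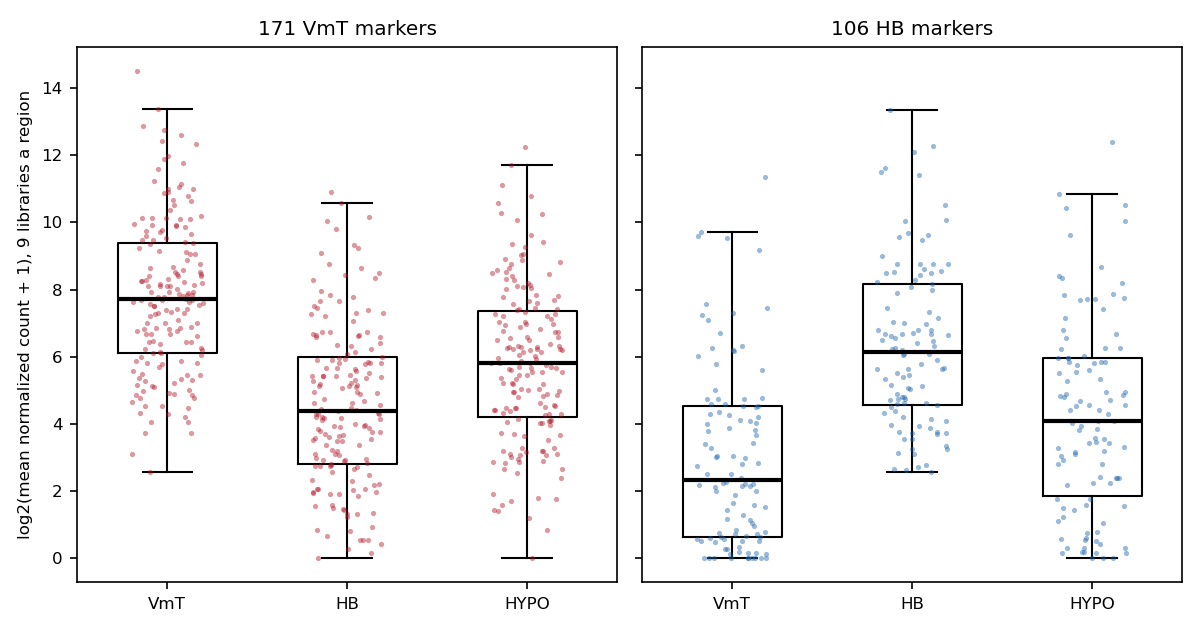
Mean level over the 9 libraries of each region, as log2(mean normalized count + 1), for the VmT markers (left) and the HB markers (right); each point is 1 marker, the box spans the quartiles the thick line is the median and the whiskers end at the outermost markers not drawn as outlying. The median VmT marker is at 7.72 in VmT, 4.37 in HB and 5.81 in HYPO, and the median HB marker at 2.33 in VmT, 6.13 in HB and 4.07 in HYPO.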

How the data were processed

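Brain pieces of female tree swallows were sequenced as stranded poly(A) libraries, paired-end. Per the labels and the study's methods, the authors trimmed reads (Trimmomatic 0.36), mapped them to a tree swallow transcriptome (Bowtie2 2.3.4.1), kept proper pairs (SAMtools 1.3.1), counted them per transcript and removed transcripts with few reads. The deposited signal is the count divided by 1 size factor per library (DESeq2 1.16.1 in R 3.4.1); it is not divided by length, although the file is named for FPKM, so the test planned for normalized values was used. In every library 100% of values came out as whole reads (tolerance 0.1). Gene names come from the protein titles in the file, which are best matches in other birds, and transcripts that share a title may share reads. Of 30 samples in the labels, 3 had no column and were not analysed here: the HB and HYPO samples titled 85692 and the VmT sample titled 85691.

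Values were tested as log2(value + 1), so fold changes of low transcripts are understated. Of 19478 transcripts, 72 that did not reach 1 in 4 or more of the 18 libraries were left out. limma 3.58.1 (R 4.3.3) with a variance trend fitted region and stage with the female as a random block (consensus correlation 0.224), and p-values were adjusted by Benjamini and Hochberg over all 19406. The females were wild birds, so replicates are separate animals. Same-numbered VmT and HB libraries deviated together in 7 of 9 females (correlation over 0.1; median 0.14, against -0.06 for 32 pairs of different females of a stage). On simulated counts the fit was tested before use. The named genes are, of transcripts with a gene symbol, the 15 markers per region of largest fold (mean of at least 50), the 5 of largest mean difference, and up to 4 called members per list and region, with further members of the families they belong to; some of these genes are not reported here; members and lists were chosen with earlier results of these data known. edgeR 4.0.16 and DESeq2 1.42.0 on the recovered reads, other scalings, filters and added constants, and leaving out each library were the alternatives.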

Additional observations from a re-analysis of the deposited data

Results flagged for a closer look

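In 15 of 246 groups of 9 libraries, 1 library lay further from the rest than Dixon's 95% limit allows; chance flags about 1 group in 20. In HB, the library of INC female 85889 was the highest in 5 of them: PRL at 82802 normalized counts (next 195), NMB at 696 (next 237), CHAT at 626 (next 418), SLC5A7 at 3975 (next 3139) and ISL1 at 23.9 (next 13). The HB library of INC female 85757 was highest for HOXA2 at 366 (next 255), HOXB2 at 162 (next 77.1) and HOXD3 at 154 (next 96.6).

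In VmT, the library of TE female 85689 was lowest for SLC17A6 at 381 (next 637), GLRA4 at 322 (next 485) and GRM2, a presynaptic glutamate receptor, at 148 (next 342), and highest for HTR1D at 539 (next 261). The VmT library of TE whose labels carry the numbers 85691 and 85692 was lowest for GFAP at 219 (next 362). PDYN was highest in the VmT library of INC female 85889, at 923 (next 381), and SLC6A4 in that of INC female 85757, at 113 (next 15.3).

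For HAPLN2 and SEMA7A the region contrast, VmT minus HB, differed between the stages: it was higher in INC than in TE by 1.22 (standard error 0.26, limma adjusted p = 0.028) and by 1.03 (standard error 0.19, adjusted p = 0.016) on the log2 scale. Calls of this kind were not steady: 195 transcripts had one in the main fit and 2 without the pairing by female. Whether HAPLN2 and SEMA7A keep theirs in the alternatives was not tested.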

How the results depend on the processing

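Of 4557 combinations of a named gene and an alternative, 4553 kept their side of the threshold. Among these named genes, no transcript called in the main fit reversed its direction. Direction was not compared for those not called, and reversals were not counted over all transcripts. The 4 changes are lost calls, of HTR1A with edgeR and DESeq2, of GLRA1 with DESeq2 and of GLRB with TMM factors. The counts of markers were within 1.5 times of 171 and 106 except for HB markers, which were 64 with an added constant of 5 and 47 with a mean of at least 50; the higher added constant shrinks folds of low transcripts, and the higher filter leaves 11798 transcripts. With each library left out, calls ran from 3437 to 3768 higher in VmT and from 4920 to 5586 higher in HB, and markers from 163 to 185 and from 101 to 130. Calls in either direction within TE ran from 6029 to 7952 and within INC from 5264 to 6729. Without the replicate block 3257 calls were higher in VmT and 4693 in HB, with the same 171 and 106 markers in number and all 277 of the main markers kept; the stage difference of the region contrast was called for 2 transcripts. With a library left out that count ran from 2 to 334 for a contrast higher in INC, and from 0 to 6 the other way. The alternatives without the block and the left-out libraries within a stage were chosen after seeing the data. edgeR kept 266 and DESeq2 272 of the 277 markers. The values of the VmT and HB libraries come to 7152856 to 13710385 recovered reads, so a transcript under 10 normalized counts rests on few reads. These sums are below the number of mapped read pairs per sample that the study reports, and the reason was not tested.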

Other observations

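The lean of the calls toward HB was largest among transcripts of low level. Of 3632 transcripts with a mean under 10 normalized counts, 6.17% were higher in VmT and 24.4% in HB, with a median difference of -0.31. Of 5030 transcripts between 200 and 1000, 26.4% were higher in VmT and 29.7% in HB, with a median of -0.02, and of 2095 above that 27.4% and 38.4% (median -0.06).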
